A study of Mus musculus with 18 samples.

Results

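Glycerol supply and triglyceride assembly were followed through 10 genes, Gpd1, Pck1, Gpam, Agpat2, Agpat3, Lpin1, Lpin2, Lpin3, Dgat1 and Dgat2, in 3T3-L1 cells, a mouse fibroblast line that can be turned into fat cells in the dish. The genes were chosen by name for their role in the pathway, with earlier results of these data known. All 10 were among the 25209 genes listed in each library. Polyadenylated RNA was sequenced in 18 libraries, 3 from each of the 6 groups named Control, MCE1, MCE2, Day4, Day6 and Day8, taken here in that order. The protocol gives cells that had been confluent for 2 days 10 µg/mL insulin, 0.25 µM dexamethasone (a glucocorticoid) and 0.5 mM IBMX (a phosphodiesterase inhibitor that raises cyclic AMP) over 48 h. Medium with 5 µg/mL insulin follows and is renewed every 2 days until day 10. Control, MCE1 and MCE2 are labelled by these names alone, with no treatment or hour spelled out. Day4, Day6 and Day8 are days after the differentiation stimuli, without a word on whether days run from the start or the end of the inducers. All groups come from this 1 line, and nothing says that the 3 libraries of a group came from separate cultures, so every p-value measures only the spread between these libraries, which may be technical.

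Triglyceride is built on a backbone of glycerol 3-phosphate. Fat cells make that backbone from glucose, through dihydroxyacetone phosphate and glycerol-3-phosphate dehydrogenase (Gpd1), or from pyruvate and lactate through glyceroneogenesis, in which the cytosolic phosphoenolpyruvate carboxykinase (Pck1) is the controlled step. A first fatty acid is added by glycerol-3-phosphate acyltransferases (Gpam and its relatives), a second by acylglycerol-phosphate acyltransferases (Agpat2, Agpat3), the phosphate is taken off by lipins, and the last fatty acid is joined by the diacylglycerol acyltransferases Dgat1 and Dgat2. The lipin product, diacylglycerol, also feeds the synthesis of phosphatidylcholine and phosphatidylethanolamine.

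The deposited values are TPM, which are scaled for gene length, so levels of different genes can be set side by side. Changes were tested with limma on log2(TPM + 1), a scale that understates the change of genes near 0, and a gene was called at a Benjamini-Hochberg adjusted p under 0.05 over the 12695 genes that reached 1 TPM in 3 or more libraries. All 10 genes passed that filter. Read depth is unknown. The 8 fat cell marker genes summed to 32.1 to 37.4 TPM in Control, 240.1 to 259 in MCE1, 2043.9 to 2328.6 in MCE2, 15886.3 to 16830.4 in Day4, 27039.4 to 29505.9 in Day6 and 23170.4 to 26714 in Day8, with Adipoq, Plin1, Retn, Cfd and Lep listed at 0 in all 3 Control libraries. The 6 preadipocyte or fibroblast markers summed to 2685 to 2720.3 TPM in Control, 712 to 742 in MCE2 and 2474.3 to 3921.1 in Day8, with Col1a1 making up most of the Day8 sum. Col1a1 averaged 2681.4 TPM in Day8 and 1234.7 TPM in Control, whereas Acta2 averaged 15.6 TPM in Day8 and 996 TPM in Control and Thy1 131 TPM in Day8 and 302 TPM in Control. Alb, Apoa1, Ttr, G6pc, Tat and Serpina1a, markers of liver, another main site of this pathway, summed to at most 0.993 TPM in any library, and the 4 endothelial markers to at most 1.05 TPM. The 5 macrophage markers summed to 3.88 to 4.87 TPM in Day8 and 5.46 to 7.74 TPM in Control, with Adgre1 and Ptprc at 0 throughout. Of the 4 muscle markers Myod1, Myog and Ckm were at 0 throughout, while Des averaged 40.6 TPM in Day8 and 3.1 TPM in Control. Of the 2 brown fat markers Ucp1 was at 0 throughout, and Cidea averaged 3.11 TPM in Day8 and was listed at 0 in Control. In bulk RNA, more cells expressing a gene and more RNA per cell cannot be told apart.

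Every step of the pathway had at least 1 gene that was higher at Day8 than in Control: 9 of the 10 genes were called higher and 1, Lpin2, was called lower, a call that 5 other settings lost. Across all tested genes 31.7% were called higher and 39.7% lower in that comparison. The median change of the 10 genes was 3.48 on the log2 scale, against -0.11 over all tested genes. All 10 also differed across the 6 groups by limma's F test, which 87.6% of tested genes passed. The changes were uneven, from 9.32 for Gpd1 to 0.65 for Lpin3 among the higher genes. By mean TPM, Gpd1 (995) led the 10 genes in Day8, followed by Dgat1 (518), Dgat2 (496), Agpat2 (449.6), Agpat3 (125) and Pck1 (109), with Gpam (62.6), Lpin1 (55.8), Lpin2 (23) and Lpin3 (2.78) below them. In Control the leading genes were Agpat3 (36.9), Agpat2 (32.5), Lpin2 (27.5) and Dgat1 (21.5), and Gpd1 (0.556) and Pck1 (0) were last.

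**Figure D1:**
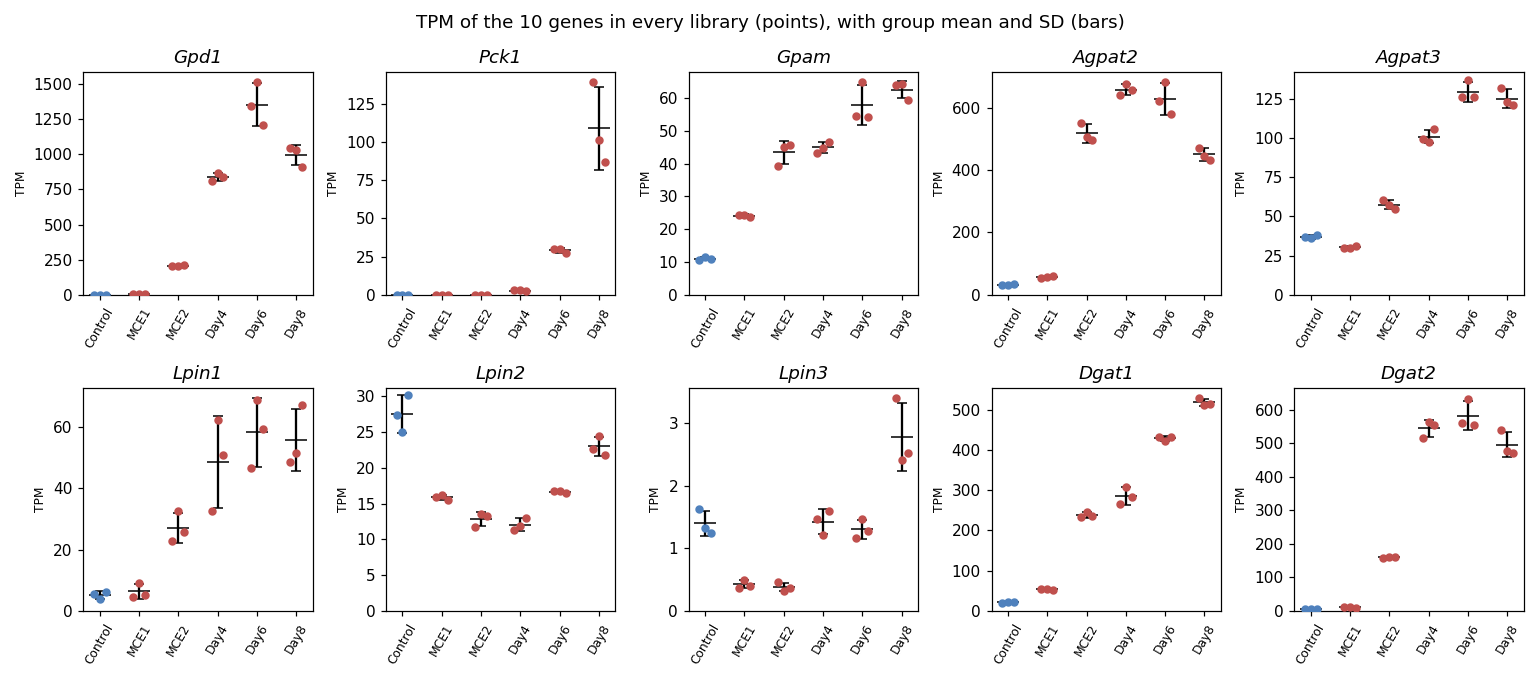
TPM (vertical axis, linear, own scale for each gene) of the 10 genes in the 6 groups in order of stage. Points are single libraries, with Control in blue and the later groups in red, and the horizontal and vertical bars are the mean and SD of 3 libraries. Pck1 stays at 0 up to MCE2 and reaches 86.6 to 139 TPM in Day8, while Agpat2 stands at 495 to 550.5 TPM in MCE2 already and Lpin2 is highest in Control.

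Gpd1, the enzyme that reduces dihydroxyacetone phosphate to glycerol 3-phosphate, showed the largest range of the 10. It stood at 0.567, 0.481 and 0.62 TPM in the 3 Control libraries, 3.38, 3.43 and 4.22 TPM in MCE1 and 208, 206 and 209 TPM in MCE2. Its values were 811, 864 and 842 TPM in Day4, 1342.2, 1512.8 and 1207.4 TPM in Day6 and 1043.8, 1030.1 and 910.1 TPM in Day8. No 2 neighbouring groups in the order of its levels overlapped. Gpd1 stood 11881st of 12695 tested genes by mean TPM in Control and 87th in Day6. MCE2 was 5.48 above MCE1 on the log2 scale (SE 0.08, limma adjusted p = 4.57e-16), and Day4 was another 2.01 above MCE2 (SE 0.08, adjusted p = 2.66e-11). Day8 was lower than Day6 by a log2 change of -0.44 (SE 0.08, limma adjusted p = 0.00127). Gpd1 made up 98.2% of the summed TPM of itself and its relative Gpd1l in Day8, against 3.37% in Control. The Gpd1 gene (mm9 chr15:99548018-99555445) overlaps the predicted gene Gm16537 over 6888 bp, and Gm16537 did not exceed 4.71 TPM in any library.

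Pck1 (mm9 chr2:172978574-172984775) was the last gene of the pathway to appear. It was listed at 0 in all 9 libraries of Control, MCE1 and MCE2. It had 3.08, 2.84 and 2.19 TPM in Day4, 30, 29.8 and 27.1 TPM in Day6 and 139, 101 and 86.6 TPM in Day8, so the 3 late groups were fully apart. Each late step was called higher: Day4 over MCE2 by 1.88, Day6 over Day4 by 3.02 and Day8 over Day6 by 1.84 on the log2(TPM + 1) scale (SE 0.14 each), with limma adjusted p-values of 2.29e-08, 1.07e-09 and 5.73e-07. Because the early groups are at 0, no ratio to them is given. The mitochondrial form Pck2 was present throughout, at 195, 174 and 186 TPM in Day8 and 113, 122 and 122 TPM in Control. Pck1 thus made up 2.43% of the summed TPM of both forms in Day4, 16.6% in Day6 and 36.7% ± 4.93 in Day8 (SD, n = 3).

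The promoter of Pck1 is shown because this gene was at 0 up to MCE2 and came on last. The window runs from 250 bases before to 50 after the RefSeq start, on the plus strand of GRCm38.p6, chr2:173152823-173153122, a different build from the mm9 of the deposited values. Capitals mark TTACGTCA, a variant of the cyclic AMP response element, and the GC box GGGCGG.
Pck1: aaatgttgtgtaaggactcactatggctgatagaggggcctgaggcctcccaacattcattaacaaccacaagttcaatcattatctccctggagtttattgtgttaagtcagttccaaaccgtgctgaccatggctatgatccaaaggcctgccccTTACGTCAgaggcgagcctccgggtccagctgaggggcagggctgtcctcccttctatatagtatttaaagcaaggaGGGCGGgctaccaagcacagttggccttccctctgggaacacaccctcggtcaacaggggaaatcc
The TTACGTCA match lies 93 to 86 bases before the start and was searched for after the sequences had been seen. It occurs on either strand in 0.499% of 32851 windows of this length, and in no other window of the 10 genes. The GC box, 16 to 11 bases before the start, occurs in 35.7% of windows. The full element TGACGTCA (1.79% of windows), the C/EBP palindrome TTGCGCAA (0.183%) and TATAAA (13.6%) were in none of the 11 windows that RefSeq gives for 7 of the genes. Gpd1, Dgat1 and Dgat2 had no window. These matches are letters in a sequence and were not tested for binding.

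Other genes around the supply and turnover of the backbone, from a list chosen with earlier results of these data known, were mostly called higher at Day8. Of 10 listed, 9 were tested, and at Day8 against Control 7 were called higher, 1 lower and 1 was not called. Of all tested genes 31.7% were called higher and 39.7% lower. Pcx, pyruvate carboxylase, which makes the oxaloacetate that carboxykinase uses, averaged 900.1 ± 66.3 TPM in Day8 and 25.7 ± 2.17 TPM in Control (SD, n = 3 each), a log2 change of 5.08 (SE 0.09, limma adjusted p = 8.02e-17). Unlike Pck1, it was already at 218 ± 3.17 TPM in MCE1 (SD, n = 3). Aqp7, the glycerol channel of fat cells, had 25.8, 30.2 and 26.5 TPM in Day8 and was listed at 0 in the 3 Control libraries. Tpi1, the triose phosphate isomerase of glycolysis, was higher in Day8 by 1.6 (SE 0.07, limma adjusted p = 3.43e-12). Pck2, Gpd1l, Gk5 and the phosphatase gene Pgp were the other genes called higher, by 0.63, 0.21, 2.14 and 0.94. The glycerol kinase gene Gk, whose enzyme recaptures free glycerol, did not pass the test. Gk had 6.42, 5.38 and 5.82 TPM in Day8 and 16.6, 8.47 and 6.06 TPM in Control. These ranges overlapped (log2 change -0.62, SE 0.35, limma adjusted p = 0.122). Gk5, in contrast, averaged 15.9 TPM in Day8 and 2.82 TPM in Control. The 1 gene called lower was Gpd2, the mitochondrial glycerol-3-phosphate dehydrogenase, at 0.339 ± 0.232 TPM in Day8 and 2.06 ± 1.05 TPM in Control (SD, n = 3 each).

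Gpam, the mitochondrial glycerol-3-phosphate acyltransferase that starts the assembly (mm9 chr19:55142126-55173967), rose early and less steeply than Gpd1. It had 10.5, 11.4 and 11 TPM in Control, 24.3, 24.4 and 23.8 TPM in MCE1 and 39.3, 45.2 and 45.8 TPM in MCE2. It then had 43.3, 44.9 and 46.7 TPM in Day4, 54.6, 64.8 and 54.3 TPM in Day6 and 64, 64.3 and 59.5 TPM in Day8. MCE1 lay above Control and MCE2 above MCE1 without overlap, whereas Day4 overlapped MCE2 and Day8 overlapped Day6. The Day8 level was 2.41 above Control on the log2 scale (SE 0.08, limma adjusted p = 9.91e-14). Its relative in the endoplasmic reticulum, Gpat3, ended higher: 132, 124 and 116 TPM in Day8 and 5, 4.76 and 4.18 TPM in Control, a log2 change of 4.47 (SE 0.09, limma adjusted p = 5.08e-16). Gpat4 averaged 74.1 ± 7.33 TPM in Day8 and 83.9 ± 1.75 TPM in Control (SD, n = 3 each), a small change in the other direction (log2 change -0.18, limma adjusted p = 0.0393) that was not called under every setting. Among the 4 acyltransferases of this step, Gpam, Gpat3 and Gpat4 gave 24%, 47.6% and 28.4% of the summed TPM in Day8, against 11%, 4.67% and 84.3% in Control. Gpam was thus the most abundant of them in neither group.

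Agpat2, the acyltransferase that makes phosphatidic acid and whose loss causes congenital lipodystrophy in people (mm9 chr2:26448577-26459937), rose mainly in 1 step. Its values were 30.9, 32.3 and 34.4 TPM in Control, 54.7, 55.3 and 58.6 TPM in MCE1 and 550.5, 506 and 495 TPM in MCE2. They were 641, 677 and 656 TPM in Day4, 622, 682 and 580.2 TPM in Day6 and 471, 446 and 432 TPM in Day8. The MCE2 libraries were far above those of MCE1, and the Day8 libraries had dropped below all MCE2 libraries. MCE2 was 3.18 above MCE1 (SE 0.06, limma adjusted p = 5.56e-15), Day4 only 0.35 above MCE2 (SE 0.06, adjusted p = 0.000195), and Day8 was lower than Day6 by a log2 change of -0.48 (SE 0.06, adjusted p = 6.13e-05).

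The Agpat2 promoter is shown beside that of Pck1 because Agpat2 was, with Gpam, closest to its highest group mean at MCE2 and Pck1 was still at 0. The window is on the minus strand of GRCm38.p6, chr2:26604368-26604667, and capitals mark GC boxes, GGGCGG.
Agpat2: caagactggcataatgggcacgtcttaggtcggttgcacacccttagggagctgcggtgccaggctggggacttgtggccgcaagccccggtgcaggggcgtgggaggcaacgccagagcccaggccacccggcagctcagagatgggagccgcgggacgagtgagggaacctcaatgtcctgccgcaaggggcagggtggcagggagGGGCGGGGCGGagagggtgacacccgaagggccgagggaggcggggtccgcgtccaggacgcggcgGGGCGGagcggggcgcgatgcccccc
There are 3 GC boxes, the first pair of them sharing a base, at 42 to 37 and 37 to 32 bases before the start and at bases 24 to 29 after it. G and C make up 72% of the Agpat2 window, with 26 CpG pairs, and 52% of the Pck1 window, with 6 CpG pairs. Medians over all windows were 52.7% and 7 CpG pairs. Gpam, the other gene closest to its highest mean at MCE2, has windows with 68% and 55.7% G and C. Lpin2, which was highest in Control, has windows with 68.7%, 80.7% and 45%. A link between base content and timing was not tested. Agpat2 has none of the other motifs searched.

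Agpat3, a relative of Agpat2 (mm9 chr10:77734308-77814445), took a slower course. It had 36.7, 36 and 38.1 TPM in Control, 29.9, 30 and 31.1 TPM in MCE1 and 60.8, 57.2 and 54.7 TPM in MCE2. It had 99.3, 97.8 and 106 TPM in Day4, 126, 137 and 126 TPM in Day6 and 132, 123 and 121 TPM in Day8. It fell in MCE1, by a log2 change of -0.27 relative to Control (SE 0.06, limma adjusted p = 0.000652), before it was higher than Control in every later group, by 1.74 at Day8 (SE 0.06, adjusted p = 1.32e-13). Agpat2 and Agpat3 started at similar levels, and the log2 ratio of Agpat2 to Agpat3 was 1.83 ± 0.0104 in Day8 and -0.18 ± 0.0526 in Control (SD, n = 3 each). The difference of 2.01 (SE 0.031) gave p = 0.1 in a 2-sided exact permutation test, the smallest p that 3 against 3 libraries allow. Agpat1 was the most abundant of Agpat1 to Agpat5 in Control, with 42.4% of their summed TPM, and gave 13.9% in Day8, although its own level was 106 ± 4.04 TPM in Day8 and 105 ± 1.77 TPM in Control (SD, n = 3 each). Agpat2 gave 59.1% in Day8 and 13.1% in Control. On a wider list of other acyltransferases at or around these steps, 7 of 8 genes were tested. At Day8 against Control 3 were called higher (Gpat3, Gnpat and Agpat5), 2 lower (Gpat4 and Agpat4) and 2 were not called (Agpat1 and Lclat1). The shares over all tested genes were 31.7% higher and 39.7% lower.

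The lipins, which remove the phosphate from phosphatidic acid and can also act in the nucleus as coactivators, moved in different directions. Lpin1, the main lipin of mature fat (mm9 chr12:16542475-16596576), had 5.49, 3.8 and 6.33 TPM in Control, 4.69, 9.27 and 5.25 TPM in MCE1 and 22.9, 32.6 and 25.8 TPM in MCE2. It had 32.5, 62.3 and 50.7 TPM in Day4, 46.6, 68.8 and 59.3 TPM in Day6 and 48.5, 51.6 and 67.3 TPM in Day8. MCE1 overlapped Control, MCE2 was above both, Day4 overlapped MCE2, and the 3 late groups overlapped each other. Lpin1 varied widely between libraries, with a coefficient of variation of 18.1% to 39% in the 6 groups, against medians over tested genes of 7% to 12.9%. It was the most variable of the 10 genes in every group but Day8, where Pck1 (24.8%) and Lpin3 (19.7%) varied more. Its level was 3.2 above Control at Day8 (SE 0.26, limma adjusted p = 1.65e-08). The Day4 step over MCE2, 0.78 (SE 0.26, limma adjusted p = 0.0198), was lost when any of 4 libraries was left out: MCE2 replicate 1 (0.67), MCE2 replicate 3 (0.76), Day4 replicate 2 (0.58) or Day4 replicate 3 (0.73).

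The Lpin1 promoter is shown as that of the lipin that rose. It lies on the minus strand of GRCm38.p6, chr12:16610917-16611216, and capitals mark AGGTCA, the core motif bound by nuclear receptors such as PPARγ, the master regulator of fat cells.
Lpin1: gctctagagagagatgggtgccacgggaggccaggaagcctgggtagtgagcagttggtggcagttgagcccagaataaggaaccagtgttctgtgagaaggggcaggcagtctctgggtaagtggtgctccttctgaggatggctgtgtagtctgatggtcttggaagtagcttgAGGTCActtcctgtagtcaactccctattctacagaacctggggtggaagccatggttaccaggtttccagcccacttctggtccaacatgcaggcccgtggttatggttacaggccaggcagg
The AGGTCA match lies 74 to 69 bases before the start, and 16.3% of all windows hold it on either strand. Gpam was the only other of the 7 genes with a window that has it. The window has 2 CpG pairs. The windows of Lpin2 have 37, 54 and 4, and those of Lpin3 have 6 and 19. Which start these cells use was not tested.

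Lpin2, a lipin that is prominent in liver (mm9 chr17:71532872-71599158), did the opposite. It had 27.4, 25 and 30.2 TPM in Control, 15.9, 16.2 and 15.5 TPM in MCE1 and 11.7, 13.5 and 13.3 TPM in MCE2. It had 11.3, 11.9 and 13 TPM in Day4, 16.7, 16.8 and 16.5 TPM in Day6 and 22.7, 24.5 and 21.8 TPM in Day8. Control was above every other group, the low point was at MCE2 and Day4, which overlapped, and the level then climbed again. Lpin2 fell by 1.13 at Day4 relative to Control (SE 0.08, limma adjusted p = 5.25e-09), and Day6 over Day4 and Day8 over Day6 were each higher by 0.44 (SE 0.08 each, adjusted p = 0.000952 and 0.00143). At Day8 the remaining difference from Control was -0.25 (SE 0.08, limma adjusted p = 0.0147), and it did not hold under other settings. It was not called with median-ratio scaling (-0.12, limma adjusted p = 0.115) or quantile normalization (-0.1, limma adjusted p = 0.184), in a fit of the Day8 and Control libraries alone (-0.25), or without Control replicate 3 (-0.18) or Day8 replicate 3 (-0.21).

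Lpin3 (mm9 chr2:160706406-160731736) was the lowest of the 10 genes in Day8. It stood at 1.63, 1.32 and 1.25 TPM in Control, 0.374, 0.495 and 0.406 TPM in MCE1 and 0.458, 0.327 and 0.37 TPM in MCE2. It stood at 1.47, 1.21 and 1.6 TPM in Day4, 1.16, 1.47 and 1.28 TPM in Day6 and 3.41, 2.42 and 2.52 TPM in Day8. It fell in MCE1 by 0.75 relative to Control (SE 0.13, limma adjusted p = 0.000113), overlapped Control at Day4 and Day6, and was 0.65 above Control at Day8 (SE 0.13, adjusted p = 0.000238). The 6 summed fibroblast markers stood at 2685 to 2720.3 TPM in Control, 924 to 976 in MCE1, 712 to 742 in MCE2, 1742.9 to 1894.2 in Day4, 1696.6 to 2212.7 in Day6 and 2474.3 to 3921.1 in Day8, none of the 6 being at 0 in all libraries of a group. They did not move together: Col1a1 averaged 1234.7 TPM in Control, 410.3 in MCE2 and 2681.4 in Day8, Acta2 996, 5.65 and 15.6 TPM in the same groups, and Pdgfra 65.4, 176 and 105 TPM. Their part in the course of Lpin2 and Lpin3 was not tested.

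Together these courses exchanged the leading lipin. Lpin1 gave 68% of the summed lipin TPM in Day8 and 15.1% in Control, and Lpin2 gave 28.5% in Day8 and 80.8% in Control. The exchange had taken place by MCE2, where Lpin1 gave 67%. The log2 ratio of Lpin1 to Lpin2, each taken as TPM + 1, was 1.23 ± 0.307 in Day8 and -2.22 ± 0.192 in Control (SD, n = 3 each). The difference was 3.45 (SE 0.209, 2-sided exact permutation p = 0.1, the smallest possible). Among 6 other phosphatidate phosphatases and lipin regulators, 1 was called higher, 3 lower and 2 were not called at Day8. Over all tested genes the shares were 31.7% higher and 39.7% lower. Plpp1, a phosphatase of the cell surface, averaged 117 ± 5.81 TPM in Day8 and 49 ± 2.55 TPM in Control, and Plpp2 averaged 19.4 ± 3.33 TPM in Day8 and 51.2 ± 2.07 TPM in Control (SD, n = 3 each). Ctdnep1, the nuclear envelope phosphatase that activates lipins, fell by 0.44 (SE 0.05, limma adjusted p = 8.34e-07), and its partner Cnep1r1 fell by 0.27 (SE 0.08, limma adjusted p = 0.00924). Bscl2, which encodes seipin, a lipid droplet protein that binds AGPAT2 and lipin, was listed at 36.7, 0 and 5.61 TPM in Day6 and at 0, 0 and 2.45 TPM in Control, values too uneven to read.

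**Figure D2:**
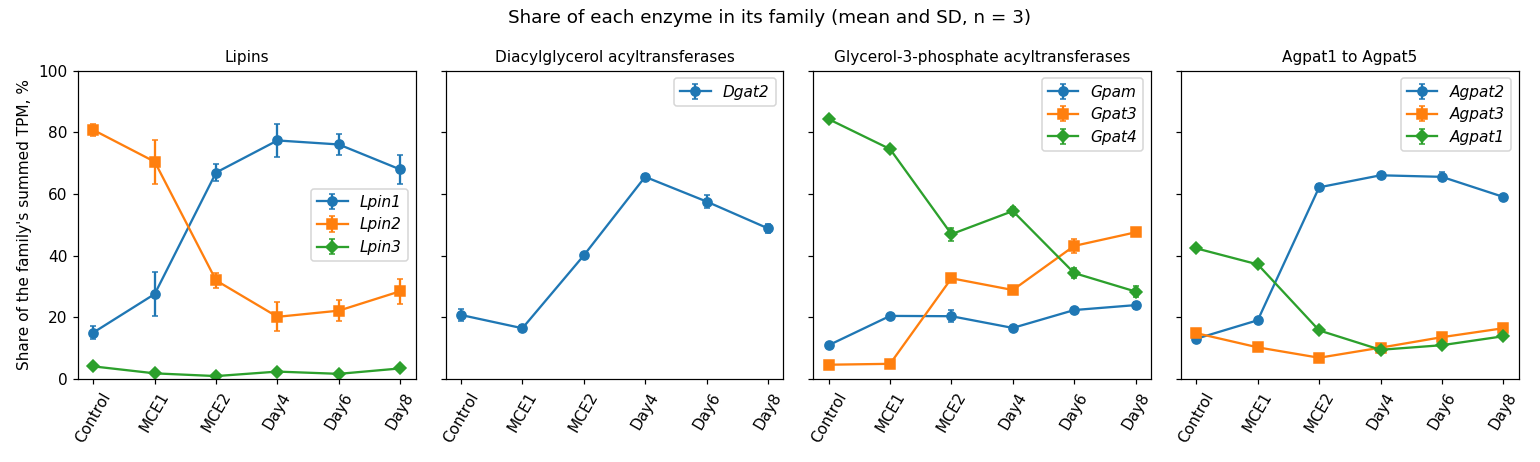
Share of each enzyme in the summed TPM of its family (vertical axis, percent) in the 6 groups in order of stage, as mean and SD of 3 libraries. From left to right are the lipins, Dgat2 as a share of Dgat1 and Dgat2, the glycerol-3-phosphate acyltransferases and Agpat1 to Agpat5. Lpin1 passes Lpin2 and Agpat2 passes Agpat1 between MCE1 and MCE2, and Dgat2 peaks at 65.6% in Day4.

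The genes of both diacylglycerol acyltransferases of the last step rose. These enzymes are unrelated in sequence and do the same reaction, and their protein and activity were not measured. Dgat1 (mm9 chr15:76332442-76342424) climbed at every step. It had 19.5, 21.9 and 23.2 TPM in Control, 55.4, 55.1 and 52.5 TPM in MCE1 and 233, 246 and 237 TPM in MCE2. It had 265, 309 and 282 TPM in Day4, 432, 421 and 432 TPM in Day6 and 528, 511 and 515 TPM in Day8. No 2 neighbouring groups overlapped, and all 4 steps after MCE1 were called, by 2.11, 0.26, 0.59 and 0.27 in order (SE 0.06 each, limma adjusted p = 5.15e-13, 0.00203, 2.93e-06 and 0.0041). At Day8 Dgat1 was 4.53 above Control (SE 0.06, limma adjusted p = 4.53e-18).

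Dgat2 (mm9 chr7:106302173-106331223) started lower and levelled off. It had 5.82, 5.47 and 5.6 TPM in Control, 10.6, 11.8 and 9.96 TPM in MCE1 and 158, 159.9 and 162 TPM in MCE2. It had 516, 563 and 553 TPM in Day4, 561, 633 and 554 TPM in Day6 and 539, 477 and 472 TPM in Day8. Day4 overlapped both Day8 and Day6, whereas Day8 and Day6 did not overlap each other. All 3 late groups lay far above MCE2. MCE2 over MCE1 was 3.78 and Day4 over MCE2 was 1.76 (SE 0.07 each, limma adjusted p = 2.83e-15 and 1.73e-11), while Day6 over Day4 was not called (0.1, adjusted p = 0.331). Day8 was lower than Day6 by a log2 change of -0.23 (SE 0.07, limma adjusted p = 0.0231). That call was lost in a fit of the Day8 and Day6 libraries alone (-0.23, limma adjusted p = 0.13) and without Day6 replicate 2 (-0.17), Day8 replicate 2 (-0.21) or Day8 replicate 3 (-0.2). Dgat2 therefore gave 20.8% of the summed TPM of both enzymes in Control, 16.5% in MCE1, 40.1% in MCE2, 65.6% in Day4, 57.6% in Day6 and 48.9% in Day8. The log2 ratio of Dgat2 to Dgat1 was -0.07 ± 0.0829 in Day8 and -1.76 ± 0.15 in Control (SD, n = 3 each), a difference of 1.7 (SE 0.099, 2-sided exact permutation p = 0.1, the smallest possible). The 4 ratios of this kind, with Lpin1 to Lpin3 at a difference of 2.55, all had an adjusted p of 0.1.

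Of 7 other listed genes of the last acylation steps, only 3 were tested, with 1 called higher, 1 lower and 1 not called at Day8. Mogat1, a monoacylglycerol acyltransferase, stood at 1.08 ± 0.316 TPM in Day8 and was listed at 0 in the 3 Control libraries, far under the Dgat levels. Lpgat1 was called lower, at 0 to 8.75 TPM in Day8 and 17.6 to 20.9 TPM in Control, and Tmem68 was not called. Fatty acids enter all these steps as acyl-CoA, and of 5 listed acyl-CoA synthetases 4 were tested. Acsl1, the main synthetase of fat cells, rose with the pathway, at 1521.5, 1665.9 and 1382.6 TPM in Day8 and 21.6, 23.3 and 23.9 TPM in Control, a log2 change of 5.99 (SE 0.08, limma adjusted p = 3.92e-18). Acsl5 fell by 1.72 (SE 0.07, limma adjusted p = 1.11e-12), and Acsl3 and Acsl4 were not called. In the phospholipid branch, 16 of 17 genes were tested, with 6 called higher, 4 lower and 6 not called. Of all tested genes 31.7% were called higher and 39.7% lower at Day8. The counts of the lists in this paragraph are a description beside those shares, not a result about the lists. The 6 higher were Chpt1, which joins choline phosphate to diacylglycerol (2.94), Pemt (1.74), Pcyt2 (1.73), Ptdss2 (1.13), Chkb (0.76) and Selenoi (0.55). Lower were Pisd, the phosphatidylserine decarboxylase (-2.01), Cdipt, the phosphatidylinositol synthase (-0.94), Pgs1 (-0.9) and Pcyt1a (-0.18). Median log2 changes at Day8 were 0.94 for the glycerol supply list, 0 for the acyltransferases, -0.35 for the phosphatases and lipin regulators, 0.05 for the last acylation steps, -0.3 for the synthetases and 0.05 for the phospholipid branch, against -0.11 over all tested genes. Genes of these lists whose Day8 against Control calls depended on settings were Gpat4, Gpd1l, Cnep1r1, Agpat4, Pcyt1a, Chkb, Lclat1, Chka, Gk, Etnk1 and Acsl4.

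The timing of each gene is seen from the level of each gene as a percentage of its own highest group mean. At MCE2 Agpat2 was at 78.6%, Gpam at 69.4%, Lpin1 at 46.5%, Dgat1 at 46.1% and Agpat3 at 44.4%. Dgat2 was at 27.5%, Gpd1 at 15.3% and Pck1 at 0. Lpin2, whose highest mean was in Control, was at 46.6%, and Lpin3, highest in Day8 but under 1 TPM at MCE2, was at 13.8%. Pck1, Lpin3 and Gpd1 thus stood lowest by this measure at MCE2, and Gpam and Agpat2 highest. This holds for these genes and not for their whole steps, since Agpat3 was at 44.4%, below Lpin1 and Dgat1. These percentages describe group means, and their differences between genes were not tested.

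**Figure D3:**
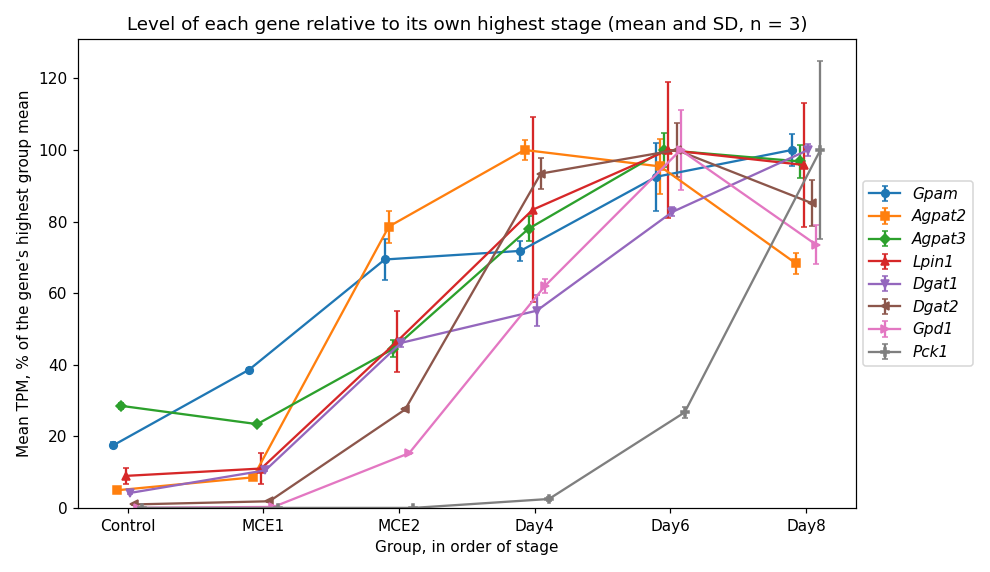
Mean TPM of 8 genes, without Lpin2 and Lpin3, as a percentage of each gene's highest group mean (vertical axis) in the 6 groups in order of stage, with SD over 3 libraries. Agpat2 is at 78.6% in MCE2, Gpd1 at 15.3% and Pck1 at 0, and Agpat2 and Gpd1 come down again in Day8 while Dgat1 and Pck1 are at their highest there.

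Read by comparison, MCE1 against Control gave 5 genes called higher (Gpd1, Gpam, Agpat2, Dgat1, Dgat2), 3 lower (Agpat3, Lpin2, Lpin3) and 2 not called, where 22% of all tested genes were called higher and 29.4% lower. MCE2 against Control gave 7 higher and 2 lower, against 23.4% and 39.1% of all genes. Day4 and Day6 against Control each gave 8 higher and 1 lower, where the shares of all genes were 29.7% and 39.3% at Day4 and 30.2% and 39.4% at Day6. These comparisons share the Control libraries and are not independent of each other.

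Between neighbouring stages, MCE2 against MCE1 had 7 genes called higher and 1 lower (17.7% and 25.2% of all genes). The 1 lower was Lpin2 (-0.29, limma adjusted p = 0.00992), a call lost with quantile normalization (-0.15) and without MCE2 replicate 1 (-0.23). Day4 against MCE2 had 8 higher and 0 lower (29.6% and 22%). In that step 0 of the 10 were lower also at an unadjusted limma p under 0.05, while quantile normalization called Lpin2 lower (-0.17, limma adjusted p = 0.0459). Day6 against Day4 had 6 higher and 0 lower by limma (14.5% and 11.2%), again 0 lower at an unadjusted p under 0.05. Day8 against Day6 split the pathway: Pck1, Dgat1, Lpin2 and Lpin3 were higher, Gpd1, Agpat2 and Dgat2 lower, and Gpam, Agpat3 and Lpin1 were not called (10.1% and 11.6% of all genes). The median change of the 10 genes in that last step was 0.03, against 0 over all tested genes. The summed fat cell markers were 23170.4 to 26714 TPM in Day8 and 27039.4 to 29505.9 TPM in Day6, without overlap, and none of the 8 was at 0 in all libraries of either group. The list was split: Fabp4, which makes up most of the sum, averaged 15628.2 TPM in Day8 and 19238.9 TPM in Day6, and Cidec, Lipe and Retn also had lower means in Day8. Adipoq had a higher mean, 3593.7 TPM in Day8 and 3167.1 TPM in Day6, as had Plin1, Cfd and Lep. Their part in the lower values of Gpd1, Agpat2 and Dgat2 was not tested.

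**Figure D4:**
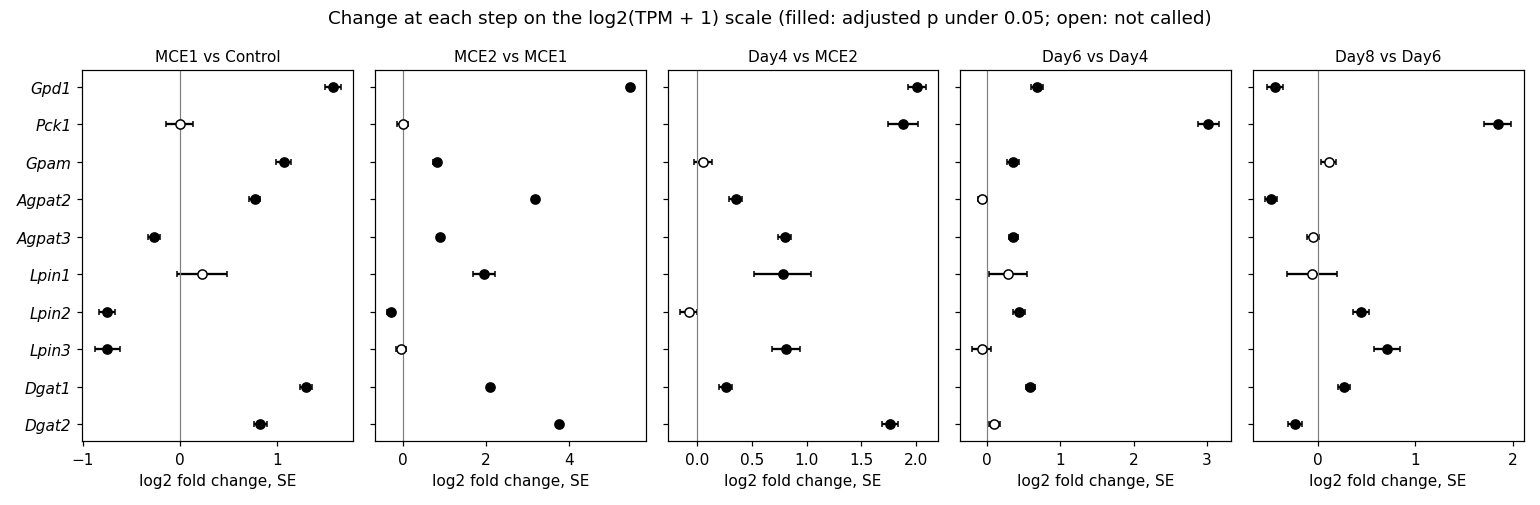
Change of the 10 genes at each step between neighbouring groups, as log2 fold change on log2(TPM + 1) (horizontal axis, own scale for each panel) with SE from the limma fit. Filled points were called at an adjusted p under 0.05 and open points were not. The largest changes of Gpd1, Agpat2 and Dgat2 are at MCE2 over MCE1, and on this scale that of Pck1 is at Day6 over Day4. The order of the Pck1 steps depends on the setting. In the alternatives its Day4 over MCE2 change ranged from 1.79 to 4.8, and Day6 over Day4 from 2.92 to 3.39.

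The genes whose log2(TPM + 1) followed each member most closely over the 18 libraries are given as a description, since all libraries share the same 6 stages and high correlations are common among genes that change with stage. Gpd1 was followed most closely by Hadh (r = 0.999), Dgat2 (0.998) and Taldo1 (0.998), so that 2 members were near neighbours of each other. Dgat2 was in turn nearest to Gpd1, and was also the third gene for Lpin1 (0.978), after Hagh (0.982) and Mfsd9 (0.981). Pck1 was nearest to the β3-adrenergic receptor Adrb3 (0.998), Fgf1 (0.996) and Ddo (0.995). Dgat1 was nearest to Ivd (0.996), Pcsk4 (0.994) and Cebpa (0.993), a transcription factor of fat cell differentiation. Agpat2 was nearest to Fam83a (0.998), Abcb9 (0.991) and Myorg (0.988), Agpat3 to Acads (0.997), and Gpam to Fgfrl1 (0.991). Lpin2 was nearest to Sdc3 (0.977), Rras2 (0.975) and Ier3 (0.973), and Lpin3 to the collagen gene Col5a2 (0.976), Thpo (0.97) and the collagen gene Col1a1 (0.957), which is one of the fibroblast markers summed above.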

How the data were processed

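The authors deposited TPM per gene, 1 table per library, made per the submitters' processing notes with FastQC, cutadapt, HISAT2 on the mm9 build and StringTie. Versions, annotation and read counts are not given in the sources used here, so precision rests on the spread between libraries. NEBNext Ultra II RNA libraries are not stated to keep strand. Of 25209 listed genes, 12 stood at another locus in Control replicate 1 and were left out, none of them a gene described above. The deposited TPM were not rescaled. Limma 3.58.1 in R 4.3.3 fitted log2(TPM + 1), pseudocount 1, with 1 mean per group over 18 libraries (robust moderation with a variance trend, 12 residual and a median of 3.18 prior degrees of freedom) for 9 comparisons and an F test, after checking on simulated data. Paralog ratios were taken on log2(TPM + 1) and used exact permutation tests, while family shares used plain TPM. The 10 genes, the gene lists and the naming rules were chosen with earlier results of these data known. All 10 genes could be named, as could any listed gene and the 3 genes with the closest pattern to each. Promoter sequences are from RefSeq (GRCm38.p6). Alternatives were scaling, pseudocount, filters, single libraries left out and a replicate block. Tables and figures used Python 3.11.15, pandas 2.3.3, numpy 2.4.6, scipy 1.17.1 and matplotlib 3.10.9.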

Additional observations from a re-analysis of the deposited data

How the results depend on the processing

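The 90 fold changes of the 10 genes were recomputed in 2331 combinations of gene, comparison and setting: 2305 kept their direction and their side of the threshold, 15 lost the call, 1 gained it and 10 changed sign, all 10 in differences called under neither setting. Lpin3 became 0.03 at Day6 against Control with median-ratio scaling and -0.08 at Day4 against Control with quantile normalization. With single libraries left out, Lpin3 ranged from -0.03 to 0.08 at Day4 and from -0.11 to 0.01 at Day6 against Control, Lpin1 from -0.04 to 0.39 at MCE1 against Control and from -0.21 to 0.07 at Day8 against Day6, and Gpam from -0.02 to 0.09 at Day4 against MCE2. The losses concern Lpin2 (Day8 against Control, MCE2 against MCE1), Lpin1 (Day4 against MCE2) and Dgat2 (Day8 against Day6). Lpin2 at MCE2 against MCE1 was lost with quantile normalization (-0.15, limma adjusted p = 0.0767) and without MCE2 replicate 1 (-0.23, limma adjusted p = 0.0525). The cause was not tested. Leaving out Control replicate 1, whose table lists 12 genes at another locus, changed no call of the 10 genes. Counts of the 10 genes called were within 1.5 times the main count in every setting. Over all genes, Day8 against Day6 gave 1072 calls in its 6 libraries alone and 2761 in the fit of 18. Median-ratio scaling moved the median of all genes by 0.17 at MCE2 against Control, to 0 from -0.17. Among listed genes not called at Day8 against Control, Plpp3 became 0.09 and Ptdss1 0.02 with median-ratio scaling, Ptdss1 0.02 and Cds2 0.02 with quantile normalization, and with single libraries left out Plpp3 ranged from -0.11 to 0.02 and Tmem68 from -0.01 to 0.12. In other comparisons Agpat1 at Day6 against Control became 0.15 with median-ratio scaling and Ptdss1 at Day4 against Control became 0.16 with quantile normalization, both then called higher. The Dgat2 to Dgat1 ratio difference became 1.85 with a pseudocount of 0.1. Same-numbered libraries did not deviate together (45 pairs, r from -0.0742 to 0.0927). The labels do not say whether the numbers mark shared cultures or days, and these correlations cannot exclude it. With a replicate block, 10 of the 10 genes were called at Day8 against Control and 8 at MCE1 against Control, the same counts as without it. Depth is unknown, so levels near 0, such as those of Lpin3, carry an unmeasured counting error.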
